A study of Mus musculus with 15 samples.

Results

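The nuclear genes for subunits of the 5 complexes of oxidative phosphorylation were taken from the table by symbol. A gene was a member where its symbol began with Nduf followed by a letter a, b, c, s or v and a digit, with Uqcr, with Atp5, or with a Cox number from 4 to 8 followed by a, b or c, or where it was Sdha, Sdhb, Sdhc or Sdhd. The rule found 79 of the 18073 genes: 35 of complex I, 4 of complex II, 7 of complex III, 16 of complex IV and 17 of complex V. Ndufa4 and its paralogue Ndufa4l2 carry complex I names but were counted with complex IV, where the Ndufa4 protein sits. A few matches are not structural subunits: Atp5s and Atp5sl, which the current mouse nomenclature no longer places in complex V, and Cox7a2l, which links complex III to complex IV. Cox4i1, Cox4i2, Cyc1 and Ndufab1 are subunits whose symbols fall outside the rule.

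The respiratory chain passes electrons from NADH (complex I) and succinate (complex II) through complex III to oxygen at complex IV, and the proton gradient built on the way drives ATP synthesis by complex V. All the complexes but complex II combine nuclear subunits with a few made inside the mitochondrion. Heart muscle is among the tissues richest in these complexes, while valve interstitial and endothelial cells hold fewer mitochondria, and complex IV has muscle forms of 3 subunits that replace the ubiquitous forms in heart and skeletal muscle.

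The tissue was the aortic valve of C57BL/6 mice at an age of 2 months, with 3 leaflets taken per mouse and dissociated in collagenase for 20 minutes before RNA was made. The groups crossed the Notch1 genotype with the genotype of Terc, the RNA template of telomerase. N1het_TercG2 valves (4 libraries) were heterozygous for Notch1 in generation 2 mice without Terc, the setting of short telomeres, and N1het_TercWT valves (4 libraries) were heterozygous for Notch1 with intact Terc and long telomeres. N1WT_TercG2 valves (3 libraries) had wild type Notch1 and lacked Terc, and N1WT_TercWT valves (4 libraries) were wild type for both. The sources used here do not name the kind of Notch1 allele, and whole leaflets are a mixture of cell types in which fewer cells of a type and less RNA per cell cannot be told apart. The groups set the Notch1 label against the telomere setting.

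The authors deposited 1 FPKM per gene and group (fragments scaled to transcript length and sequencing depth), so the spread between mice is unknown, no difference below has a replicate check, and "higher" and "lower" describe pooled values without a test. Each difference is log2(FPKM + 1) of the first group minus that of the second, a scale that understates differences of genes with low levels. Terc was listed at 0 in N1het_TercG2 and N1WT_TercG2 valves, against 4.52 FPKM in N1het_TercWT and 1.42 FPKM in N1WT_TercWT valves. Notch1 stood at 25.1 FPKM in N1het_TercWT valves against 39.1 FPKM in N1WT_TercWT valves, but at 23.3 FPKM in N1het_TercG2 valves against 16.6 FPKM in N1WT_TercG2 valves. In the short-telomere pair the Notch1 level therefore goes against the labels, and the sources used here do not say whether a deleted part of the gene is counted. The groups are called by their labels below. Mitochondrially encoded RNA took 35.0% of the FPKM total in N1het_TercG2 and 32.5% in N1WT_TercG2 valves, against 10.01% in N1het_TercWT and 14.4% in N1WT_TercWT valves, which bears on any comparison of short with long telomeres.

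The subunit genes were strongly expressed in every group. None of the 79 was listed at 0, and 75 had a mean of at least 10 FPKM. Their median level was 104 FPKM in N1het_TercG2 valves, 96.5 FPKM in N1het_TercWT, 73.0 FPKM in N1WT_TercG2 and 67.4 FPKM in N1WT_TercWT valves. Summed over the members, the level was 11086 FPKM in N1het_TercG2, 9562 FPKM in N1het_TercWT, 8318 FPKM in N1WT_TercG2 and 7653 FPKM in N1WT_TercWT valves. Both Notch1 heterozygous groups thus stood above both Notch1 wild type groups. As a share of all FPKM outside the mitochondrial genome, the members made up 2.89% in N1het_TercG2, 2.55% in N1het_TercWT, 2.11% in N1WT_TercG2 and 2.09% in N1WT_TercWT valves. N1het_TercG2 was the highest group for 47 members, N1het_TercWT for 19, N1WT_TercG2 for 9 and N1WT_TercWT for 4, where N1het_TercG2 was the highest for 19.0% of all genes and for 40.7% of the 1254 genes with a mean of at least 50 FPKM.

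Levels differed between the complexes by more than they differed between groups. The median gene of complex IV stood at 264, 199, 196 and 179 FPKM in N1het_TercG2, N1het_TercWT, N1WT_TercG2 and N1WT_TercWT valves, the highest of the 5 complexes in every group. Complex V followed at 155, 117, 108 and 108 FPKM in the same order of groups, and complex III at 108, 96.5, 71.2 and 69.0 FPKM. The 35 genes of complex I had medians of 73.8, 66.0, 58.5 and 50.1 FPKM, close to complex II at 68.8, 76.2, 60.0 and 55.9 FPKM. Complex II was the only complex whose sum was higher in N1het_TercWT valves, at 309 FPKM, than in N1het_TercG2 valves, at 296 FPKM, with 256 FPKM in N1WT_TercG2 and 224 FPKM in N1WT_TercWT valves. For complex I the sums were 3066, 2819, 2424 and 2178 FPKM, for complex III 809.8, 741, 613 and 577 FPKM, for complex IV 3775, 2931, 2783 and 2649 FPKM, and for complex V 3140, 2762, 2242 and 2025 FPKM. From the lowest group to the highest these sums spanned a ratio of 1.41, 1.38, 1.40, 1.42 and 1.55 for complexes I to V. The order of the wild type groups rests on the scaling for complexes III and IV, whose sums, rescaled without mitochondrially encoded genes, were 591 and 2685 FPKM in N1WT_TercG2 valves against 599 and 2747 FPKM in N1WT_TercWT valves.

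**Figure D1:**
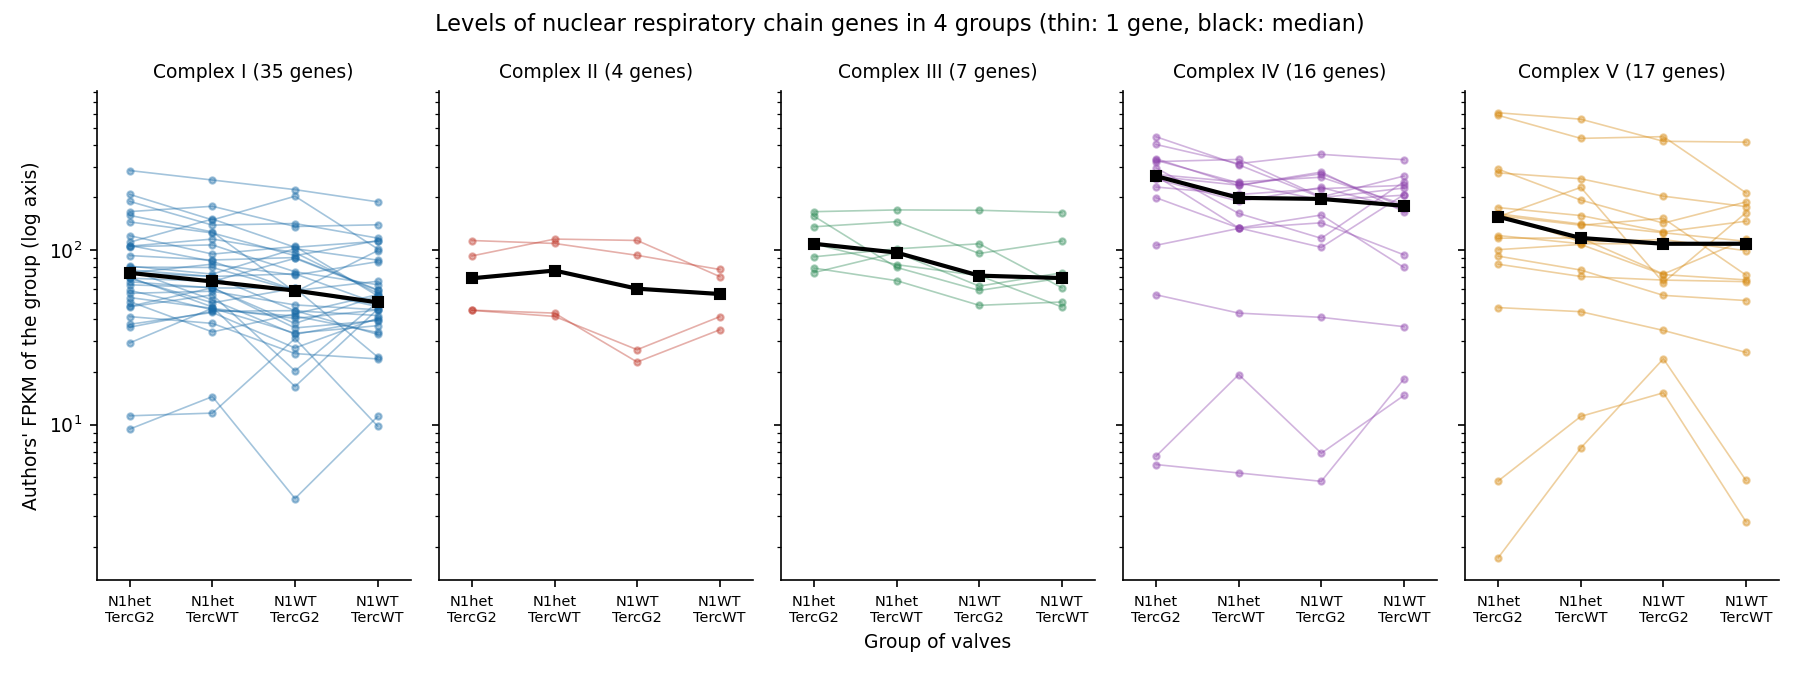
Authors' FPKM of each subunit gene (log axis) in the 4 groups, 1 panel per complex; thin lines join the values of 1 gene and black squares are the median gene, with no error bars because each group has 1 pooled value. Complex IV has the highest median in every group (264 FPKM in N1het_TercG2 valves), and a few genes of complexes I, IV and V lie far below the rest.

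No subunit gene was among those the authors called different. Across its 5 comparisons the authors' deposited table marked 0 of the 79 members, against 0.476% of all genes for N1het_TercG2 over N1WT_TercG2, 0.415% for N1het_TercWT over N1WT_TercWT, 0.686% for N1WT_TercG2 over N1WT_TercWT, 0.432% for N1het_TercG2 over N1het_TercWT and 0.526% for N1het_TercG2 over N1WT_TercWT. A count of 0 among 79 is near those shares. The smallest ratio of FPKM among genes marked in the authors' deposited table was 4.25, and among the members only Atp5s and Atp5sl, both at low levels, spanned a wider ratio between any groups, at 5.47 and 13.8.

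Between Notch1 heterozygous and wild type valves the differences were small and spread over most subunit genes. In the valves labelled N1het_TercG2, 66 of the 79 members were higher than in those labelled N1WT_TercG2, which is 83.5%, where 53.5% of all genes and 58.4% of genes with a mean of at least 50 FPKM were higher. In N1het_TercWT valves 71 members, or 89.9%, were higher than in N1WT_TercWT valves, where 55.9% of all genes and 57.9% of genes with a mean of at least 50 FPKM were higher. The median difference of the members was 0.36 with short telomeres and 0.37 with long telomeres, against 0.06 and 0.09 for all genes and 0.12 and 0.09 for genes with a mean of at least 50 FPKM, whose levels are more like those of the members. In the long-telomere pair 17 members (21.5%) were at least 1.5-fold higher in N1het_TercWT valves and 4 (5.06%) at least 1.5-fold lower. The shares were 22.7% and 16.7% of all genes, and 17.2% and 13.8% of genes with a mean of at least 50 FPKM. The upward share of the members was thus near that of all genes. It was a little above that of genes with a mean of at least 50 FPKM, a gap that was not tested. With short telomeres 24 members (30.4%) were at least 1.5-fold higher in N1het_TercG2 valves and 3 (3.80%) at least 1.5-fold lower. The shares were 23.9% and 19.0% of all genes, and 19.1% and 12.8% of genes with a mean of at least 50 FPKM.

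These pairs of groups share no library, so a gene's direction can be set side by side. Of the 79 members 59, or 74.7%, were higher in the Notch1 heterozygous valves of both pairs, against 31.3% of all genes and 37.6% of genes with a mean of at least 50 FPKM. A joint share of about this size already follows from the 83.5% and 89.9% of members higher in the single pairs. It does not show that the pairs agree gene by gene. Ndufa6, an accessory subunit of complex I, was the only member lower in both, at 80.7 FPKM in N1het_TercG2 against 102 FPKM in N1WT_TercG2 valves, and at 72.7 FPKM in N1het_TercWT against 87.4 FPKM in N1WT_TercWT valves. By complex the count higher in both was 28 of 35 for complex I, 3 of 4 for complex II, 5 of 7 for complex III, 8 of 16 for complex IV and 15 of 17 for complex V. The remaining members of complex V were Atp5s and Atp5sl, so that each of its recognised subunit genes stood higher in both pairs. With long telomeres, however, the differences of Atp5k (0.0011), Atp5d (0.03) and Atp5j2 (0.04) lay below the median of all genes (0.09). At least 1.5-fold higher in both were 5 members (6.33%), among them Ndufs1, Ndufa9 and Ndufa10 of complex I and Uqcrfs1 of complex III. The share was 6.34% of all genes and 4.63% of genes with a mean of at least 50 FPKM.

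**Figure D2:**
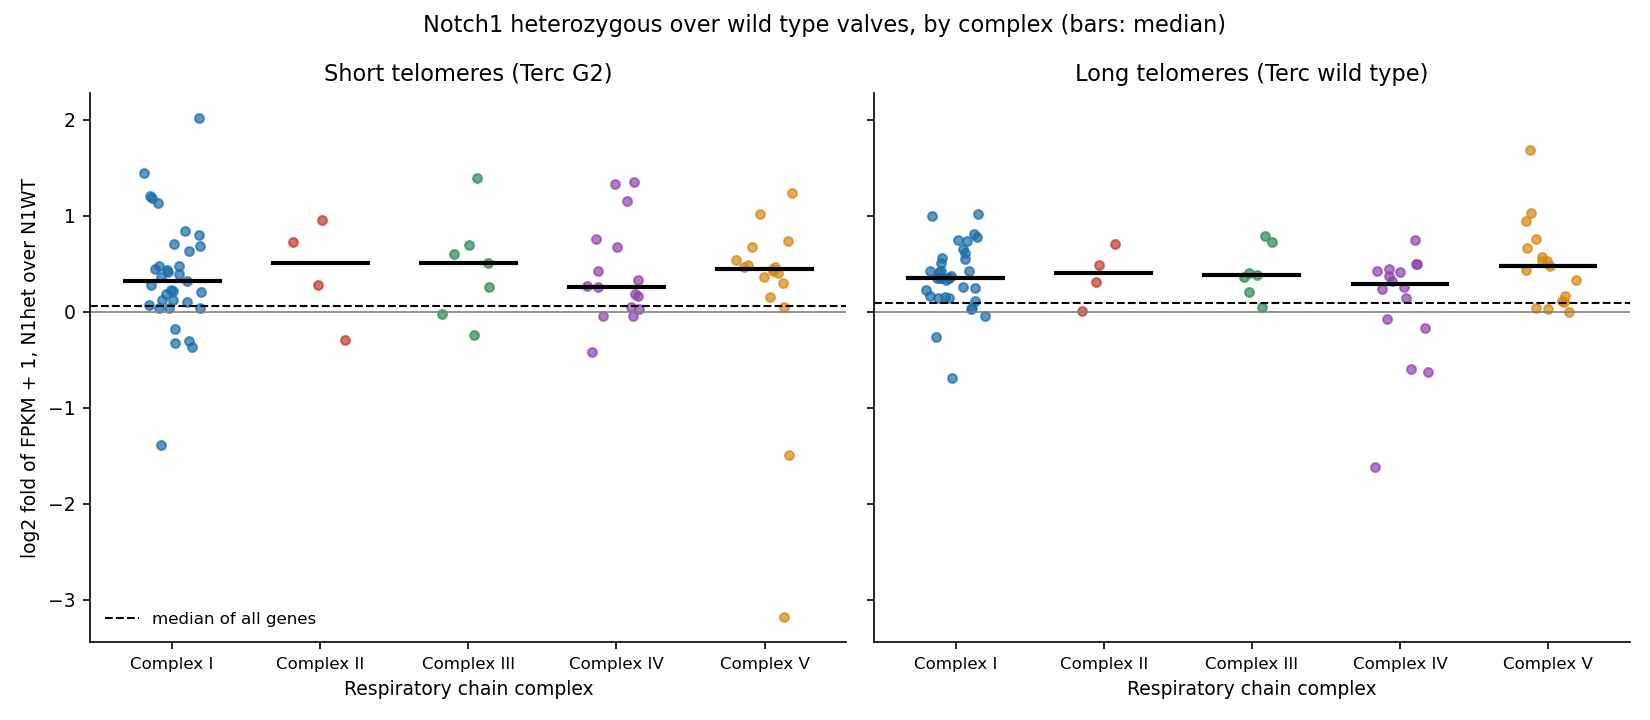
Difference in log2(FPKM + 1) between Notch1 heterozygous and wild type valves for each subunit gene, by complex, with short telomeres in the left panel and long telomeres in the right; bars are medians, the dashed line is the median of all genes, and points are spread sideways at random. Every complex has its median above the dashed line in both panels, from 0.26 for complex IV to 0.50 for complexes II and III with short telomeres.

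In complex I, the NADH dehydrogenase, the median difference was 0.32 for N1het_TercG2 over N1WT_TercG2 (30 of 35 genes higher) and 0.35 for N1het_TercWT over N1WT_TercWT (32 of 35 higher). Its core carries the flavin, the iron-sulphur clusters and the ubiquinone site, and all 7 core genes of the rule were higher in N1het_TercWT than in N1WT_TercWT valves, while 5 of 7 were higher in N1het_TercG2 than in N1WT_TercG2 valves. Ndufs1, the largest core subunit and a carrier of iron-sulphur clusters, stood at 41.5 and 38.0 FPKM in N1het_TercG2 and N1het_TercWT valves and at 25.5 and 23.8 FPKM in N1WT_TercG2 and N1WT_TercWT valves, differences of 0.68 with short and 0.65 with long telomeres. Both heterozygous groups lay above both wild type groups for this gene. The exceptions with short telomeres were Ndufv2 and Ndufs3, core subunits with differences of -0.31 and -0.18.

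Among the accessory subunits of complex I, which surround the core, the widest spread was that of Ndufa12. It had 69.6 FPKM in N1het_TercG2, 47.1 FPKM in N1het_TercWT, 16.5 FPKM in N1WT_TercG2 and 45.7 FPKM in N1WT_TercWT valves. The low value of N1WT_TercG2 sets its difference of 2.01 with short telomeres, beside 0.04 with long telomeres. Ndufb7, with the lowest mean of the complex, showed the same low group, with 9.43, 14.5, 3.77 and 11.1 FPKM in N1het_TercG2, N1het_TercWT, N1WT_TercG2 and N1WT_TercWT valves. Ndufb2 was the reverse case, at 31.1 FPKM in N1WT_TercG2 valves and 11.2, 11.6 and 9.81 FPKM in N1het_TercG2, N1het_TercWT and N1WT_TercWT valves. For Ndufb5 the low group was N1WT_TercWT, at 24.4 FPKM, against 68.7 FPKM in N1het_TercG2, 49.8 FPKM in N1het_TercWT and 60.3 FPKM in N1WT_TercG2 valves. The 2 most abundant genes of the complex were Ndufa13, also studied as the cell death regulator GRIM-19, at 285, 251, 221 and 188 FPKM in N1het_TercG2, N1het_TercWT, N1WT_TercG2 and N1WT_TercWT valves, and Ndufb9, at 208, 149, 203 and 101 FPKM. Ndufa13 followed the order of the member sums, while for Ndufb9 the groups with short telomeres were the higher ones. Ndufs6 varied least, with a ratio of 1.19 between its highest and its lowest group.

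Complex II, succinate dehydrogenase, is shared with the citric acid cycle and is encoded wholly in the nucleus. Its flavoprotein Sdha and its iron-sulphur protein Sdhb form the catalytic head, and Sdhc and Sdhd anchor it in the membrane. Sdha had 92.4 FPKM in N1het_TercG2 and 115 FPKM in N1het_TercWT valves, against 113 FPKM in N1WT_TercG2 and 70.4 FPKM in N1WT_TercWT valves, so that the difference was -0.29 with short and 0.70 with long telomeres. Sdhb stood at 45.1, 41.6, 26.8 and 41.5 FPKM in N1het_TercG2, N1het_TercWT, N1WT_TercG2 and N1WT_TercWT valves, and Sdhc at 45.2, 43.5, 22.8 and 34.9 FPKM. Both were low in N1WT_TercG2 valves, the group in which Sdha was among the highest, so the genes of this complex did not share a pattern. Sdhd, at 113, 109, 93.1 and 77.3 FPKM, followed the order of the member sums.

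Complex III, the cytochrome bc1 complex, had median differences of 0.50 for N1het_TercG2 over N1WT_TercG2 (5 of 7 genes higher) and 0.38 for N1het_TercWT over N1WT_TercWT (7 of 7 higher). Uqcrfs1, the Rieske iron-sulphur protein that takes electrons from ubiquinol, had 108 FPKM in N1het_TercG2, 82.4 FPKM in N1het_TercWT, 71.2 FPKM in N1WT_TercG2 and 47.2 FPKM in N1WT_TercWT valves. Both heterozygous groups lay above both wild type groups. Uqcrb, a small subunit that contributes to ubiquinone binding, had 156 FPKM in N1het_TercG2 valves alone and 79.4, 58.6 and 69.0 FPKM in N1het_TercWT, N1WT_TercG2 and N1WT_TercWT valves. The core protein Uqcrc2 was at 91.3, 101, 108 and 60.8 FPKM in N1het_TercG2, N1het_TercWT, N1WT_TercG2 and N1WT_TercWT valves, low in the last group only. The small subunit Uqcrq stood at 78.7, 66.7, 48.2 and 50.3 FPKM, and the hinge protein Uqcrh, which helps cytochrome c bind, at 136, 145, 95.4 and 112 FPKM. Uqcr, now named Uqcr11 and the most abundant gene of the complex, was the steadiest of all members at 166, 169, 169 and 164 FPKM, a ratio of 1.04 between its highest and its lowest group.

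Complex V, the ATP synthase, had median differences of 0.44 for N1het_TercG2 over N1WT_TercG2 (15 of 17 genes higher) and 0.48 for N1het_TercWT over N1WT_TercWT (17 of 17 higher). Its F1 head makes ATP on the beta subunits, encoded by Atp5b, which had 589 FPKM in N1het_TercG2, 435 FPKM in N1het_TercWT, 445 FPKM in N1WT_TercG2 and 212 FPKM in N1WT_TercWT valves. N1WT_TercWT was the low group for this gene, and the difference was 0.40 with short and 1.03 with long telomeres. Atp5c1, the gamma subunit that forms the rotating stalk of the head, showed the same low group at 71.8 FPKM, against 157, 138 and 152 FPKM in N1het_TercG2, N1het_TercWT and N1WT_TercG2 valves. Atp5l, subunit g of the membrane part, was the most abundant member of all 5 complexes by its mean, with 609.8 and 560.2 FPKM in N1het_TercG2 and N1het_TercWT valves against 419 and 414 FPKM in N1WT_TercG2 and N1WT_TercWT valves. Atp5k, subunit e, differed by a ratio of 1.11 between its highest and lowest group, and its difference in the long-telomere pair was only 0.0011.

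The ring of subunit c in complex V is encoded by 3 genes whose products differ only in the leader that is removed on import. Atp5g2 had 155 FPKM in N1het_TercG2, 228 FPKM in N1het_TercWT, 65.1 FPKM in N1WT_TercG2 and 163 FPKM in N1WT_TercWT valves. It thus supplied 45.8% of the subunit c level in N1het_TercG2, 56.2% in N1het_TercWT, 31.8% in N1WT_TercG2 and 55.1% in N1WT_TercWT valves, lower in each group without Terc than in its Terc wild type counterpart. Atp5g1 and Atp5g3 varied less, with ratios between the highest and the lowest group of 1.26 and 1.59. The genes that bear a complex V name without being recognised subunits behaved differently. Atp5sl had 1.73 FPKM in N1het_TercG2, 7.35 FPKM in N1het_TercWT, 23.8 FPKM in N1WT_TercG2 and 4.79 FPKM in N1WT_TercWT valves, the widest ratio of any member at 13.8. Atp5s had 4.76, 11.1, 15.2 and 2.78 FPKM in the same order of groups. Both were highest in N1WT_TercG2 valves and far below the levels of the subunits.

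**Figure D3:**
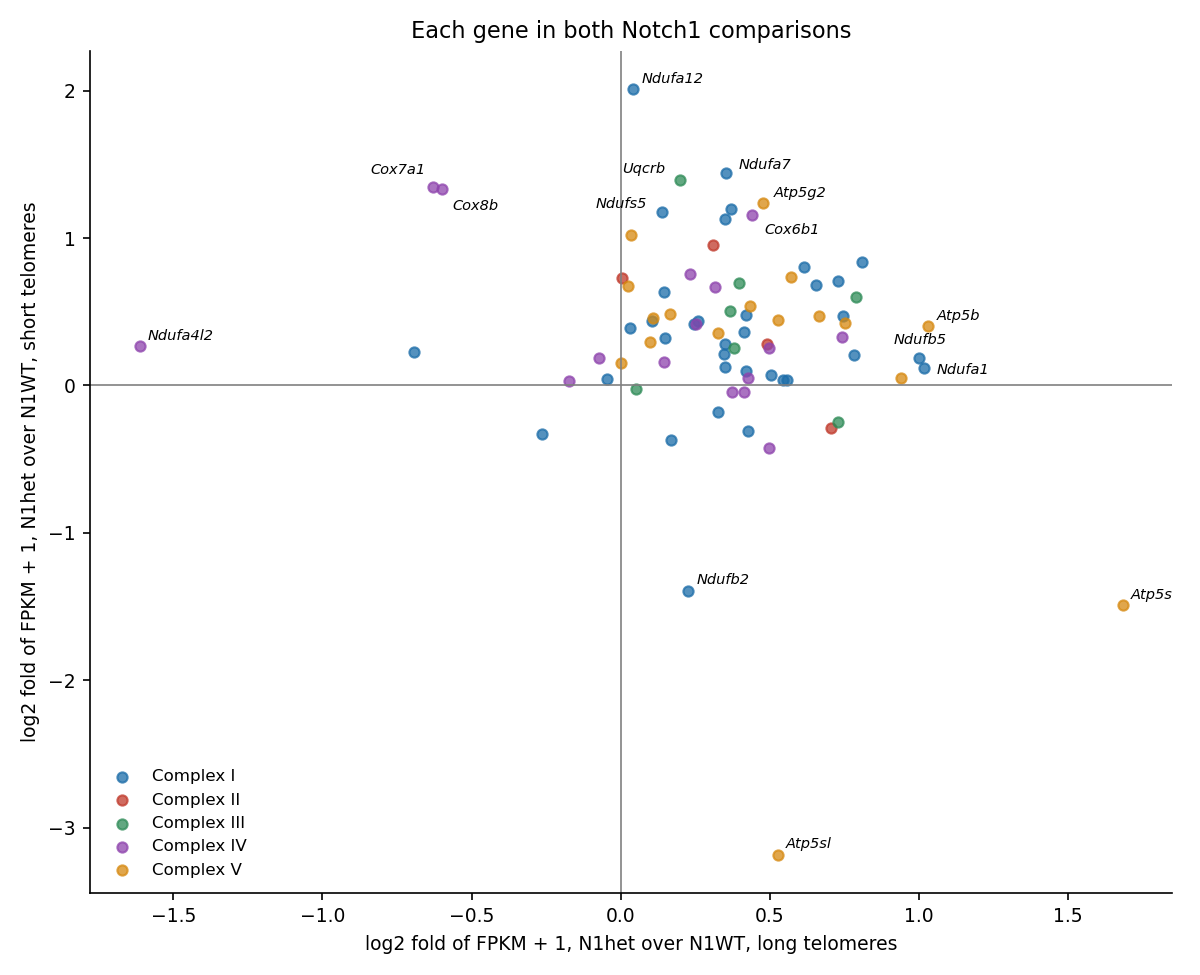
Each point is 1 subunit gene, with the log2(FPKM + 1) difference of N1het_TercWT over N1WT_TercWT on the horizontal axis and of N1het_TercG2 over N1WT_TercG2 on the vertical axis, coloured by complex. The upper right of the plane holds 59 of the 79 genes, Cox7a1 and Cox8b lie together at the upper left, and Atp5s lies at the lower right.

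Complex IV, cytochrome c oxidase, had the lowest medians, 0.26 for N1het_TercG2 over N1WT_TercG2 (13 of 16 genes higher) and 0.28 for N1het_TercWT over N1WT_TercWT (11 of 16 higher), and it held 5 of the 8 members that were lower in the long-telomere pair. Of its 10 ubiquitous genes 9 were higher in each pair. Cox6b1, which faces the space where cytochrome c docks, had 444 FPKM in N1het_TercG2, 307 FPKM in N1het_TercWT, 199 FPKM in N1WT_TercG2 and 226 FPKM in N1WT_TercWT valves. Both heterozygous groups lay above both wild type groups. Its testis form Cox6b2 stood at 6.60, 19.3, 6.86 and 14.7 FPKM in N1het_TercG2, N1het_TercWT, N1WT_TercG2 and N1WT_TercWT valves, low in the groups without Terc. Ndufa4l2, a paralogue of Ndufa4 known as a hypoxia-induced gene, was at 5.91, 5.29 and 4.73 FPKM in N1het_TercG2, N1het_TercWT and N1WT_TercG2 valves against 18.2 FPKM in N1WT_TercWT valves.

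Among the 3 muscle forms of complex IV, 2 had another pattern than the ubiquitous forms. Cox7a1 had 265 FPKM in N1het_TercG2 and 134 FPKM in N1het_TercWT valves, against 103 FPKM in N1WT_TercG2 and 207 FPKM in N1WT_TercWT valves. Cox8b had 295 and 162 FPKM in N1het_TercG2 and N1het_TercWT valves, against 117 and 246 FPKM in N1WT_TercG2 and N1WT_TercWT valves. Both genes were higher in N1het_TercG2 and N1WT_TercWT valves than in N1het_TercWT and N1WT_TercG2 valves. Their differences were 1.35 and 1.33 for N1het_TercG2 over N1WT_TercG2 and -0.63 and -0.60 for N1het_TercWT over N1WT_TercWT. Cox6a2, the muscle form of a subunit that binds regulatory nucleotides in heart, did not share this pattern and stood at 401, 312, 352 and 328 FPKM in N1het_TercG2, N1het_TercWT, N1WT_TercG2 and N1WT_TercWT valves.

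Set against the ubiquitous partner in the same group, the Cox7a1 level was 0.797 times that of Cox7a2 in N1het_TercG2, 0.571 times in N1het_TercWT, 0.371 times in N1WT_TercG2 and 1.25 times in N1WT_TercWT valves. The ubiquitous Cox7a2 itself was at 333, 234, 279 and 165 FPKM. Cox8b stood at 1.29, 0.779, 0.520 and 1.05 times the level of Cox8a, while Cox8a was nearly level at 229, 208, 224 and 234 FPKM. The ratio of Cox8b to Cox8a was therefore set by the muscle form, while that of Cox7a1 to Cox7a2 differed through both genes. Cox6a2 was above Cox6a1 in every group, by 1.23, 1.29, 1.83 and 1.60 times, with Cox6a1 at 326, 242, 193 and 206 FPKM.

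**Figure D4:**
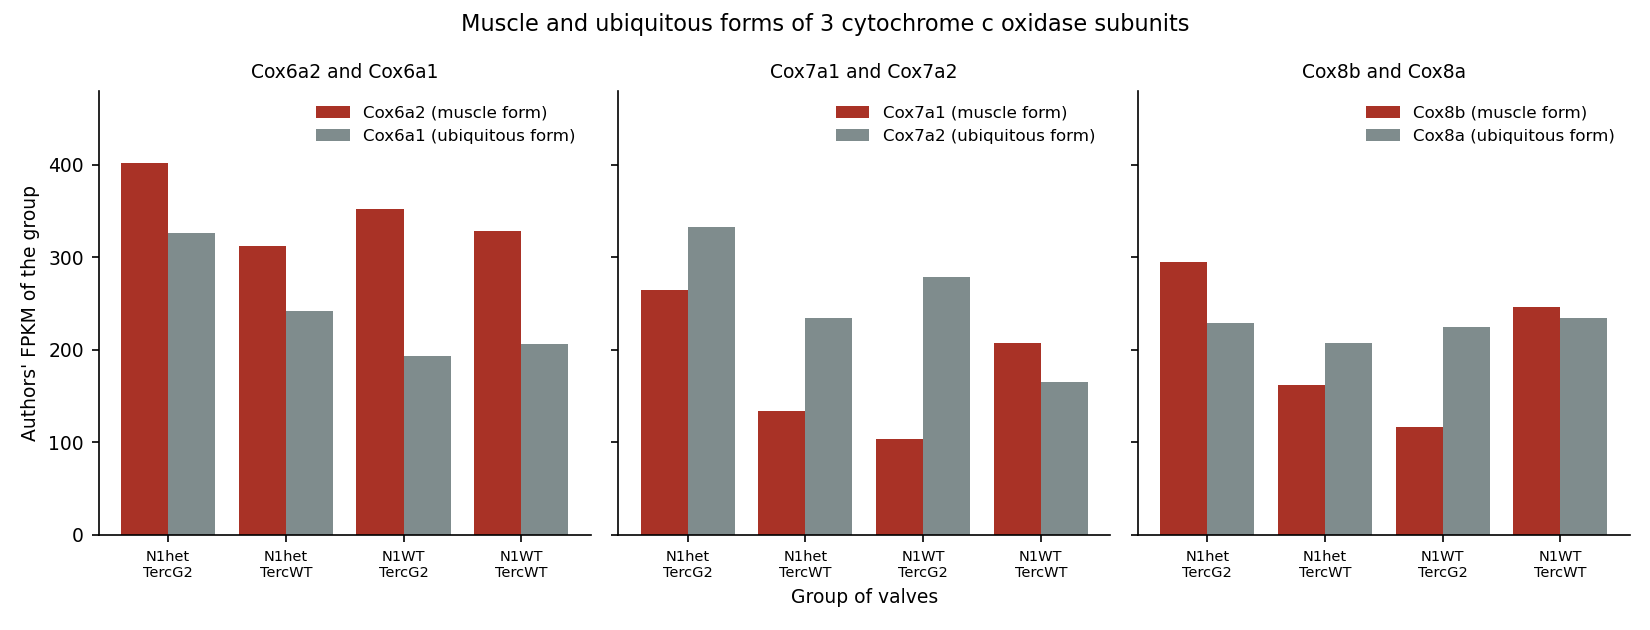
Authors' FPKM of the muscle form (red) and the ubiquitous form (grey) of 3 complex IV subunits in the 4 groups, on a common axis from 0, with no error bars because each group has 1 pooled value. Cox7a1 and Cox8b are lowest in N1WT_TercG2 valves (103 and 117 FPKM), while Cox8a stays between 208 and 234 FPKM.

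The 2 cardiomyocyte markers with the widest range, both atrial genes, were high and low in the same groups. Nppa, the atrial natriuretic peptide, had 413 FPKM in N1het_TercG2 and 43.4 FPKM in N1het_TercWT valves, against 46.8 FPKM in N1WT_TercG2 and 352 FPKM in N1WT_TercWT valves. Myl7, the atrial light chain of myosin, had 129, 13.0, 47.1 and 216 FPKM in N1het_TercG2, N1het_TercWT, N1WT_TercG2 and N1WT_TercWT valves. Both were high in the groups where Cox7a1 and Cox8b were high. Of the other markers only Myh7 shared this pattern, at 41.1, 24.9, 21.0 and 33.0 FPKM in the same order of groups. The other 12 of the 15 were higher in N1het_TercWT than in N1WT_TercWT valves, where Cox7a1 and Cox8b were lower. The whole list of 15 cardiomyocyte markers was measured with none at 0, and its summed level was 8549.6 FPKM in N1het_TercG2, 6424 FPKM in N1het_TercWT, 5394 FPKM in N1WT_TercG2 and 5358 FPKM in N1WT_TercWT valves, so that both heterozygous groups stood above both wild type groups, as for the subunit genes. The wild type groups were nearly level, with 7 of 15 markers higher in N1WT_TercG2 than in N1WT_TercWT valves and a median difference of -0.05. All 15 markers were higher in N1het_TercG2 than in N1WT_TercG2 valves (median difference 0.70) and 12 of 15 were higher in N1het_TercWT than in N1WT_TercWT valves (median 0.31). Most of the gap between the sums of the long-telomere pair lay in 1 gene, Actc1. It had 1674 FPKM in N1het_TercWT and 758 FPKM in N1WT_TercWT valves, and 2251 and 1026 FPKM in N1het_TercG2 and N1WT_TercG2 valves. The sum of the subunit genes was 1.30 times the sum of these markers in N1het_TercG2, 1.49 times in N1het_TercWT, 1.54 times in N1WT_TercG2 and 1.43 times in N1WT_TercWT valves. The part of cardiomyocyte RNA in the differences of the subunit genes was not tested.

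Regulators of these genes bind close to their start sites, among them NRF1, ETS factors, YY1 and the oestrogen-related receptors. RefSeq promoter windows of build GRCm38.p6, from 250 bases before to 50 bases after a start, were at hand for 65 of the 79 members (71 windows), and 7 short motifs were searched on both strands, none of which contains the letters of another. The NRF1 motif, GCGCA and GCGC with 1 free base between them, was in 25.4% of the member windows and in 4.60% of all 32851 windows. The ETS motif CCGGAAG was in 22.5% of member and 8.86% of all windows, the YY1 motif AAGATGGCG in 12.7% and 1.40%, and the motif AAGGTCA of the oestrogen-related receptors in 11.3% and 4.72%. The SP motif GGGCGG (36.6% and 35.7%), the CCAAT box (40.8% and 37.4%) and TATAAA (9.86% and 13.6%) were about as frequent in member windows as in all windows. The NRF1 motif was found for 7 of 31 genes of complex I with a window, 2 of 3 of complex II (Sdha and Sdhd), 1 of 4 of complex III (Uqcrc1), 1 of 13 of complex IV (Cox6a1) and 6 of 14 of complex V. A match is a stretch of letters and not a measured site.

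Windows of 6 genes are printed 5′ to 3′ so that the starts of the muscle and ubiquitous forms of complex IV, which differed across the groups, can be read beside each other and beside Atp5b. Each holds 250 bases before the annotated start and 30 after it. No window was at hand for the muscle form Cox6a2, so Cox6a1 is shown without its partner. Capitals mark only the motifs named for each gene here, on either strand, and other searched motifs stay in lower case. They lie in GRCm38.p6 at chr7:30183921-30184200 on the plus strand (Cox7a1, with CCAAT boxes in capitals), chr9:79759824-79760103 on the minus strand (Cox7a2, SP), chr7:140900417-140900696 on the minus strand (Cox8b, TATA box), chr19:7217587-7217866 on the minus strand (Cox8a, ETS), chr5:115348929-115349208 on the minus strand (Cox6a1, NRF1 and ETS) and chr10:128083057-128083336 on the plus strand (Atp5b, SP and CCAAT boxes).
Cox7a1: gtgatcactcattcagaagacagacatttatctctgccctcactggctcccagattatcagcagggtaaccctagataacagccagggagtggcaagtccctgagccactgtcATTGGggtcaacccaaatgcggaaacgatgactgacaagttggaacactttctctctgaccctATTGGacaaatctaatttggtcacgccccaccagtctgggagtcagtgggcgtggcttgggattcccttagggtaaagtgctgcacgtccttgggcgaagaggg
Cox7a2: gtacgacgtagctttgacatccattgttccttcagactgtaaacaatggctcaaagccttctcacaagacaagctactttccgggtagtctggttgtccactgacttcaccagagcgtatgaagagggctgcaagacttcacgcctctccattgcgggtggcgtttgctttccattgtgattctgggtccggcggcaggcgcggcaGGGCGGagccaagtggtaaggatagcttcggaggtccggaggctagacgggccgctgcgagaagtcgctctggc
Cox8b: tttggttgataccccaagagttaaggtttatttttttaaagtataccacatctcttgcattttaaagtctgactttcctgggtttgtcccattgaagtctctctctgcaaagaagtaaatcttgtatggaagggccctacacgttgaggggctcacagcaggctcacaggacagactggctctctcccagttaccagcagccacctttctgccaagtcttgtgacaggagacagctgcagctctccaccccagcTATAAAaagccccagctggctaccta
Cox8a: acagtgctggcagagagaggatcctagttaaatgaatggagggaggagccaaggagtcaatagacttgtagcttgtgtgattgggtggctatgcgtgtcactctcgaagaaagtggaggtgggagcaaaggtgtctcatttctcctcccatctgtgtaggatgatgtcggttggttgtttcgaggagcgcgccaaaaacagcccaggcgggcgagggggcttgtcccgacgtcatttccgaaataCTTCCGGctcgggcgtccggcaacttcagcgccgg
Cox6a1: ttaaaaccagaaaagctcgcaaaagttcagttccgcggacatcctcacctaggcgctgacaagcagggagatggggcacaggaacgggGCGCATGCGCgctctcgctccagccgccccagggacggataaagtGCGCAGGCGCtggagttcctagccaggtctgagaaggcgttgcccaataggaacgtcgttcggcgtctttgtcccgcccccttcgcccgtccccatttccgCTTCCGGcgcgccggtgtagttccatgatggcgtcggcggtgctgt
Atp5b: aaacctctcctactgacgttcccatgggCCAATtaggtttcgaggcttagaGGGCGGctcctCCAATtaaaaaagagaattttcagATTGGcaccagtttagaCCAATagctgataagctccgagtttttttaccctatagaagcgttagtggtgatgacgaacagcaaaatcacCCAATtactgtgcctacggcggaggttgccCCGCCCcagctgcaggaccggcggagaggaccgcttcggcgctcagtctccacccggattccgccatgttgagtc
The window of Cox8b held the TATA letters and none of the NRF1, ETS, YY1, SP or CCAAT letters, and that of Cox7a1 held 2 CCAAT boxes and none of the others. The ubiquitous Cox8a window held 1 ETS motif and 1 CCAAT box. That of Cox6a1 held 2 NRF1 motifs, 1 ETS motif, 2 SP motifs and 1 CCAAT box. The window of the ubiquitous Cox7a2 held 1 SP motif and none of the others. No motif thus set all the ubiquitous windows shown apart from the muscle ones.

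Between valves without Terc and Terc wild type valves of the same Notch1 label, the members had no common direction. The Notch1 level itself was lowest in N1WT_TercG2 valves, at 16.6 FPKM against 39.1 FPKM in N1WT_TercWT valves. By their labels these groups differ in Terc alone, and the source of the Notch1 difference was not tested. In N1WT_TercG2 over N1WT_TercWT valves 44 of 79 members (55.7%) were higher, where 36.6% of all genes and 62.0% of genes with a mean of at least 50 FPKM were, and the median was 0.09, against -0.23 for all genes and 0.17 for genes with a mean of at least 50 FPKM. In N1het_TercG2 over N1het_TercWT valves 53 (67.1%) were higher, where 34.3% of all genes and 67.8% of those at 50 FPKM or more were, and the median was 0.13, against -0.24 for all genes and 0.20 for those at 50 FPKM or more. With FPKM rescaled without mitochondrially encoded genes, the median for N1WT_TercG2 over N1WT_TercWT was -0.013, so its sign rests on the scaling. Without Terc 32 members (40.5%) were higher in both pairs, against 16.1% of all genes and 45.7% of genes with a mean of at least 50 FPKM. In the Notch1 wild type pair 17 members (21.5%) were at least 1.5-fold higher and 12 (15.2%) at least 1.5-fold lower. The shares were 16.5% and 34.5% of all genes, and 23.7% and 11.6% of genes at 50 FPKM or more. The lower members were Ndufa4l2, Ndufa12, Ndufb7, Atp5g2, Ndufs5, Cox8b, Cox7a1, Cox6b2, Ndufa7, Atp5d, Sdhb and Sdhc, from -1.75 to -0.59. In the heterozygous pair 3 members (3.80%) passed that size upwards, namely Cox7a1, Uqcrb and Cox8b. Downwards 4 (5.06%) passed it, namely Atp5sl, Cox6b2, Atp5s and Ndufs3. The shares were 11.1% and 31.7% of all genes, and 22.1% and 8.21% of genes at 50 FPKM or more.

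In N1het_TercG2 over N1WT_TercWT valves, which differ in both labels, 65 of 79 members (82.3%) were higher, where 40.1% of all genes and 69.5% of genes with a mean of at least 50 FPKM were. This comparison shares its groups with those above. Its median was 0.54, against -0.16 for all genes and 0.32 for genes with a mean of at least 50 FPKM, and by complex it was 0.47, 0.38, 0.58, 0.46 and 0.57 for complexes I to V. At least 1.5-fold higher were 33 members (41.8%), against 15.9% of all genes and 30.1% of genes with a mean of at least 50 FPKM, led by Atp5b at 1.47 and Ndufb5 at 1.46, with Cox7b, a small ubiquitous subunit of complex IV, at 1.31. Cox7b stood at 199 FPKM in N1het_TercG2 valves against 79.4 FPKM in N1WT_TercWT valves. Only Ndufa4l2, Atp5sl and Cox6b2 (3.80%) were at least 1.5-fold lower, against 30.5% of all genes and 11.5% of genes at 50 FPKM or more.

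Genes that work beside the respiratory chain were taken from lists. All 13 citric acid cycle genes were higher in N1het_TercG2 than in N1WT_TercG2 valves (median 0.53) and all 13 were higher in N1het_TercWT than in N1WT_TercWT valves (median 0.44). Dld, the lipoamide dehydrogenase of the cycle, had 87.3, 62.8, 48.3 and 33.3 FPKM in N1het_TercG2, N1het_TercWT, N1WT_TercG2 and N1WT_TercWT valves. Sucla2, a subunit of succinyl-CoA synthetase, had 64.8, 49.2, 29.6 and 33.8 FPKM. Of 14 electron carriers and subunits outside the rule 10 were higher with short telomeres (median 0.42) and 13 with long telomeres (median 0.51). Cox4i1, the complex IV subunit that the rule misses, stood at 494 and 493 FPKM in N1het_TercG2 and N1het_TercWT valves against 402 and 289 FPKM in N1WT_TercG2 and N1WT_TercWT valves, and the electron carrier cytochrome c, Cycs, at 188, 153, 119 and 77.1 FPKM. Both were chosen after their values were seen. Those with the widest range in that list were Etfa, which feeds electrons from fatty acid oxidation, at 110.4, 68.9, 77.2 and 36.2 FPKM, and the ADP/ATP carrier Slc25a5, at 94.2, 150.5, 85.9 and 50.7 FPKM. Glycolysis, which does not need the chain, also stood higher, in 12 of 15 genes with short telomeres (median 0.51) and 14 of 15 with long telomeres (median 0.33), its widest ranges being those of Aldoc (2.92, 0.783, 0 and 0.341 FPKM) and Pfkl (6.25, 8.55, 3.37 and 7.90 FPKM).

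Genes that build the complexes or regulate them did not follow the subunits as closely. Of 10 measured complex I assembly factors 6 were higher in N1het_TercG2 than in N1WT_TercG2 valves (median 0.11) and 7 were higher in N1het_TercWT than in N1WT_TercWT valves (median 0.22). Ndufaf3 had 49.0, 57.2, 8.12 and 39.7 FPKM in N1het_TercG2, N1het_TercWT, N1WT_TercG2 and N1WT_TercWT valves and Nubpl, which delivers iron-sulphur clusters to complex I, had 6.33, 3.66, 8.35 and 0.844 FPKM. Of 16 assembly factors of complexes II to V 12 and 7 were higher in the short and the long-telomere pair (medians 0.28 and -0.06), and 13 of 16 were lower in N1WT_TercG2 than in N1WT_TercWT valves (median -0.90). Lyrm7, a complex III assembly factor, had 2.50, 2.84, 0.0561 and 2.36 FPKM in N1het_TercG2, N1het_TercWT, N1WT_TercG2 and N1WT_TercWT valves, and Cox11, which brings copper to complex IV, had 9.49, 10.01, 2.46 and 7.17 FPKM. Of 13 regulators of mitochondrial gene expression 5 and 8 were higher in the short and the long-telomere pair (medians -0.25 and 0.17), and 12 of 13 were lower in N1het_TercG2 than in N1het_TercWT valves (median -0.53). Polrmt, the mitochondrial RNA polymerase, had 1.08, 8.22, 7.57 and 8.85 FPKM, and Nrf1, whose motif was searched above, had 1.70, 7.73, 2.36 and 6.07 FPKM in N1het_TercG2, N1het_TercWT, N1WT_TercG2 and N1WT_TercWT valves. The subunit sum was highest in the group where Polrmt and Nrf1 were lowest, but other regulators differed. Ppargc1a was highest in that group, at 13.4, 11.9, 7.17 and 10.5 FPKM in the same order of groups. Gabpa (29.2, 31.4, 22.3 and 19.1 FPKM) and Gabpb1 (7.04, 7.48, 5.11 and 2.82 FPKM) were higher in both heterozygous groups than in both wild type groups. Ppargc1a, Gabpa and Gabpb1 were chosen after their values were seen.

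**Figure D5:**
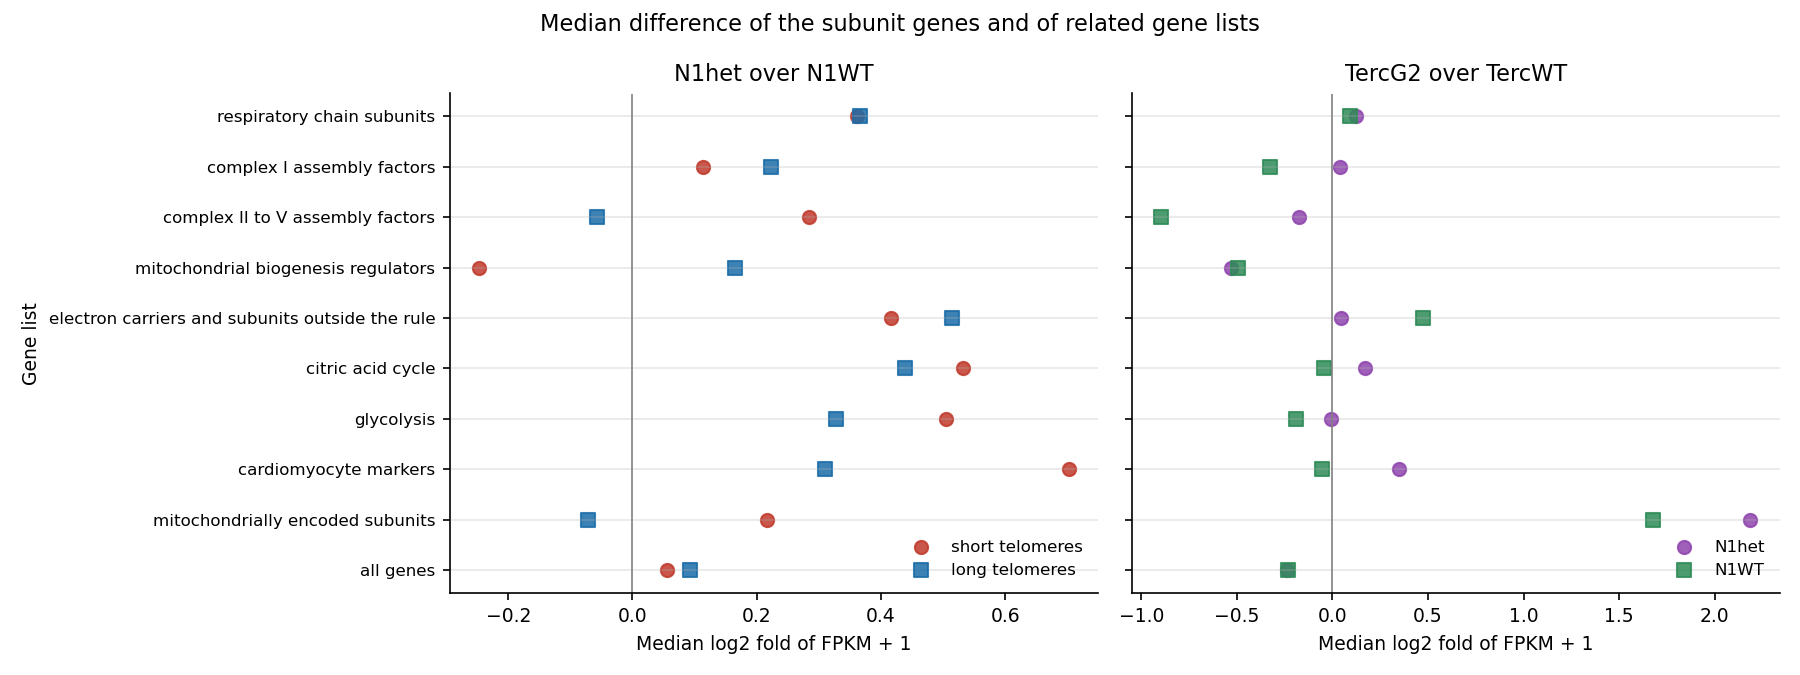
Median log2(FPKM + 1) difference of the 79 subunit genes, 8 related gene lists and all genes, for Notch1 heterozygous over wild type valves in the left panel (short and long telomeres) and for valves without Terc over Terc wild type valves in the right panel (N1het and N1WT). The subunit genes have medians of 0.36 and 0.37 on the left and 0.13 and 0.09 on the right, while the mitochondrially encoded subunits have 2.19 and 1.67 on the right.

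Subunits of complexes I and V made inside the mitochondrion had another pattern than the nuclear ones. Of 13 listed subunits made there, only 4 were found by symbol, none of them of complex III or IV. These 4, mt-Atp6, mt-Atp8, mt-Nd3 and mt-Nd4l, were all higher in valves without Terc. The medians were 2.19 for N1het_TercG2 over N1het_TercWT and 1.67 for N1WT_TercG2 over N1WT_TercWT. For Notch1 heterozygous over wild type valves the medians were 0.22 with short and -0.07 with long telomeres. mt-Atp6, which forms the proton channel of complex V, had 11898 FPKM in N1het_TercG2, 2050 FPKM in N1het_TercWT, 11607 FPKM in N1WT_TercG2 and 2221 FPKM in N1WT_TercWT valves, and mt-Nd4l of complex I had 10114, 2035, 9544 and 2980 FPKM. The authors' deposited table marked 1 of the 4 as different in each comparison of short with long telomeres. The shares of all genes were 0.686% for N1WT_TercG2 over N1WT_TercWT, 0.432% for N1het_TercG2 over N1het_TercWT and 0.526% for N1het_TercG2 over N1WT_TercWT. With only 4 genes, a count of 1 cannot be read as a share.

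Other cell types differed between the groups as well, by their marker lists, and their part in the results on the subunit genes was not tested. Macrophage markers were higher in 7 of 8 with short and 6 of 8 with long telomeres for Notch1 heterozygous over wild type valves, with medians of 1.14 and 0.34 and sums of 2743, 1494, 1391 and 998 FPKM in N1het_TercG2, N1het_TercWT, N1WT_TercG2 and N1WT_TercWT valves. In the same order of groups, T cell markers summed to 19.7, 1246, 177 and 131 FPKM (0 of 9 higher with short and 9 of 9 with long telomeres, medians -2.41 and 3.24). Neutrophil markers summed to 167, 45.4, 1767 and 16.4 FPKM (1 and 8 of 8, medians -2.90 and 0.73), with 2 of the 8 at 0 in N1WT_TercWT valves. Most of the macrophage sum was Lyz2, at 1839, 921, 999 and 554 FPKM, and 2 of the 8 macrophage markers were higher in N1WT_TercG2 than in N1WT_TercWT valves (median -0.19).

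Platelet markers summed to 404, 124, 2057 and 3183 FPKM (0 of 9 higher in both pairs, medians -3.65 and -5.11) and erythroid markers to 15768, 7453, 28567 and 17024 FPKM (0 and 1 of 7, medians -1.49 and -1.14). Smooth muscle markers summed to 499.9, 281, 628 and 1248 FPKM (1 and 0 of 8, medians -0.33 and -2.51). The markers of valve interstitial cells, the main cells of the leaflet, were all measured with none at 0, at sums of 5429.6, 4301, 7052 and 5110.4 FPKM (4 and 0 of 9, medians -0.07 and -0.53). Dcn made up most of each interstitial sum, at 3188, 2255, 4698 and 2692 FPKM, and 6 of the 9 markers were lower in N1WT_TercG2 than in N1WT_TercWT valves, against the order of the sums. Endothelial markers summed to 476, 243, 413 and 294 FPKM (6 and 1 of 8, medians 0.13 and -0.31). Interstitial and endothelial markers were thus present in every group, beside cardiomyocyte markers. The cardiomyocyte sum (15 genes) was 8549.6, 6424, 5394 and 5358 FPKM in the same order of groups. It was above the interstitial sum (9 genes) in every group but N1WT_TercG2. Adipocyte markers summed to 639.9, 175, 305 and 115 FPKM (2 and 4 of 7, medians -0.53 and 0.06), nearly all of it Fabp4, at 626, 165, 278 and 103 FPKM. Adipoq and Ucp1, which define fat cells, were listed at 0 in N1het_TercG2 valves and stood at most at 2.75 and 1.89 FPKM in another group.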

How the data were processed

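Per the labels' protocols the library kit amplifies cDNA linearly and does not keep the strand, so reads of overlapping or antisense genes cannot be told apart. Per the submitters' processing notes, FastQC, TopHat, SAMtools and Picard were used with genome build mm9. The sources used here name neither the quantifier nor its treatment of reads shared with pseudogenes, which are frequent for small respiratory subunits, nor the annotation or the test that gave the calls. For each gene and group the authors deposited 1 FPKM made from 15 libraries in all, and 5 columns of 0 or 1 read as their calls, per the file headers. Call columns 8 and 9 share a header and were assigned to pairs of groups by the FPKM ratios of the called genes, which were at least 4.30 in the pair taken. Depth per library is unknown. No column of per-sample values was left unused (0).

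Members and lists were chosen with earlier results of these data known. The planned limma test needed values per library, so differences of log2(FPKM + 1), counts, medians and sums were computed from the deposited FPKM and described, beside the same over all genes. The 17 lists include 10 of cell type markers. Named were, in each complex, the 4 members with the widest log2 range and the 2 with the highest mean, the isoform pairs and the lowest members (30 in all), and in each pathway list and the cardiomyocyte list the 2 with the widest range. Ndufa6, Ndufs1, Ndufs3, Ndufs6, Ndufv2, Atp5c1, Atp5k, Cox7b and other members given singly were chosen after their values were seen. All 79 members matched a reference identifier. The code was tested on simulated data. Alternatives were a pseudocount of 0.1, a mean of at least 10 FPKM, median scaling, rescaling without 24 mitochondrially encoded rows, leaving out 6 members (Atp5s, Atp5sl, and the muscle and testis forms Cox6a2, Cox7a1, Cox8b and Cox6b2, but not Cox7a2l) and, chosen after seeing the data, a background of genes with a mean of at least 50 FPKM. Promoter sequences are from RefSeq (GRCm38.p6). Computation used pandas 2.3.3 and numpy 2.4.6 under Python 3.11.15, and drawing used matplotlib 3.10.9.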

Additional observations from a re-analysis of the deposited data

Results flagged for a closer look

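For 3 members the differences between Notch1 heterozygous and wild type valves were at least 1.5-fold and of opposite direction in the 2 telomere settings. Cox7a1, a muscle form in complex IV, had a log2(FPKM + 1) difference of 1.35 for N1het_TercG2 over N1WT_TercG2 and of -0.63 for N1het_TercWT over N1WT_TercWT. Cox8b, another muscle form, had 1.33 and -0.60 in the same comparisons. Atp5s, a complex V namesake with low levels, had -1.49 with short and 1.68 with long telomeres. Each group has 1 pooled value, so none of these differences between settings was tested.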

How the results depend on the processing

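The median difference of the members kept its direction for N1het_TercG2 over N1WT_TercG2 and for N1het_TercWT over N1WT_TercWT under all 6 alternatives, from 0.24 to 0.40 and from 0.27 to 0.37. The 0.24 came from taking genes with a mean of at least 50 FPKM as the background, an alternative chosen after seeing the data. Against that background the median was -0.081 for N1WT_TercG2 over N1WT_TercWT, -0.074 for N1het_TercG2 over N1het_TercWT (29 members higher) and 0.23 for N1het_TercG2 over N1WT_TercWT. Median scaling gave 0.32, 0.37 and 0.70 for these 3 comparisons. Rescaling without mitochondrially encoded genes gave -0.013 for N1WT_TercG2 over N1WT_TercWT. These differ because each alternative applies another shift to all genes. Of 150 differences of named members, 15 had another sign under median scaling, 6 after rescaling, 21 against the background of at least 50 FPKM and 0 with a pseudocount of 0.1. Rescaling took the sum ratio of N1WT_TercG2 over N1WT_TercWT to 0.987 for complex III and 0.977 for complex IV, against 1.06 and 1.05 as deposited. Ratios of the highest to the lowest complex sum and isoform ratios moved by less than 0.1. No paired analysis was possible because the table holds 1 pooled value per group, and for the same reason no replicate could be left out. Depth and error per library are unknown, so low members such as Atp5s, Atp5sl, Ndufb7 and Cox6b2 are the least certain.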
